A study of Mus musculus with 8 samples.

Results

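Matricellular proteins are secreted into the matrix around cells and act mainly on how cells attach, move and respond to growth factors, rather than as load-bearing fibres. The genes described here are those of periostin (Postn) and its relative Tgfbi, of 4 thrombospondins (Thbs1, Thbs2, Thbs3 and Comp), of the tenascins C and W (Tnc and Tnn), of Sparc and of fibronectin (Fn1). They were taken by symbol from the authors' deposited gene table, and all 10 were found among its 17441 genes. They were chosen by name as genes of matricellular and fibronectin-type matrix proteins, with the deposited values of knockout against wild type already known, so those values are a description and do not test the group.

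The samples were primary mouse embryonic fibroblasts lacking Cbx2 (Cbx2-/-, a targeted deletion) and wild-type fibroblasts from littermates, both taken at embryonic day 18 and collected at passage 2. Cbx2 encodes a chromodomain subunit of polycomb repressive complex 1, which keeps developmental genes silent. RNA came from 2 knockout and 2 wild-type libraries of 200000 cells each, with about 4.62 Gb of sequence per library. The labels do not state if the 2 libraries of a genotype were made from different embryos, so the authors' p-values may measure technical spread only. Both groups are bulk cultures of primary cells, in which fewer cells of a type and less RNA per cell cannot be told apart. The table gives 1 normalised value per genotype, so values carry no SD. The ratio of the knockout to the wild-type value equals the deposited fold change, which is shrunken towards 0 in genes with few reads, so the printed values of low genes differ less than their reads did and are above 0 even where a genotype had no read. The values of the knockout sum to 18910077 and those of wild type to 19428299. Cbx2 itself had a value of 29.0 in knockout and 347 in wild type. All 11 fibroblast markers examined were in the table, the lowest at 87.1 in knockout and 118 in wild type, and their values summed to 505176 in knockout and 591397 in wild type. Fold changes and adjusted p-values were taken from the authors' deposited table, which holds their DESeq2 comparison; a gene is said to have risen or fallen where that adjusted p is under 0.05.

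Periostin and TGFBI are built from fasciclin domains and bind integrins and collagen; periostin is abundant in connective tissue that is growing or healing. Thrombospondins assemble as trimers (Thbs1 and Thbs2) or pentamers (Thbs3, Thbs4 and Comp), and thrombospondin 1 is known to release TGF-beta from its latent form. Tenascins are large multi-armed glycoproteins that modulate adhesion of cells to fibronectin, SPARC binds collagen, and fibronectin forms the fibrils on which much of the later matrix is assembled.

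The starts of Postn and Tnn are shown first, because these were the 2 of the 10 genes that fell by 2-fold or more. RefSeq promoter windows on GRCm38.p6, from 250 bases before to 50 after an annotated start, were at hand for 7 of the 10 genes, with 9 windows in all. Postn has 2 such windows and Tnn has 1. Tnc has 2 that overlap, and 1 of these is given beside them because it shares a motif with Postn. Each is written 5′ to 3′ on the strand of the gene. Capitals mark every match on either strand to any of 4 motifs. These were TATANAA, a form of the TATA box that places the start of transcription; CCAAT, which appears as ATTGG where it lies on the other strand; the GC box GGGCGG; and GGAATG, which TEAD factors are known to bind. The AP-1 motif TGANTCA and the CArG box of serum response factor were searched as well, and no 2 matches overlapped.
Postn, upstream start, chr3:54359017-54359316, plus strand: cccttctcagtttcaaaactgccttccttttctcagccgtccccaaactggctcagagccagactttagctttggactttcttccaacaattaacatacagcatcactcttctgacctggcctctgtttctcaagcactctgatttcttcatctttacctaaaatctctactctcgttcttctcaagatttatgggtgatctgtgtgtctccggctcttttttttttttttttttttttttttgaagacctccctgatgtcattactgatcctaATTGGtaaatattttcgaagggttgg
Postn, downstream start, chr3:54360857-54361156, plus strand: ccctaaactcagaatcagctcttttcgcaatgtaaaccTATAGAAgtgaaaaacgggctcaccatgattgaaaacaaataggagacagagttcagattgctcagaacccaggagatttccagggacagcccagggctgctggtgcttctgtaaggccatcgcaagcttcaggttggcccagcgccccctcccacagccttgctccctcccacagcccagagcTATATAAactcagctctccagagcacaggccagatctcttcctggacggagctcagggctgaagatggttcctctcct
Tnn, chr1:160153526-160153825, minus strand: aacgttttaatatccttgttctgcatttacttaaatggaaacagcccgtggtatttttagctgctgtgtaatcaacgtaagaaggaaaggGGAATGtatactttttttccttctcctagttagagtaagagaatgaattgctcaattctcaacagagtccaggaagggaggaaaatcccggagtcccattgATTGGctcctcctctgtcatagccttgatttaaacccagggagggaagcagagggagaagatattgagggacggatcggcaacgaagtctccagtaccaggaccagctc
Tnc, chr4:64046887-64047186, minus strand: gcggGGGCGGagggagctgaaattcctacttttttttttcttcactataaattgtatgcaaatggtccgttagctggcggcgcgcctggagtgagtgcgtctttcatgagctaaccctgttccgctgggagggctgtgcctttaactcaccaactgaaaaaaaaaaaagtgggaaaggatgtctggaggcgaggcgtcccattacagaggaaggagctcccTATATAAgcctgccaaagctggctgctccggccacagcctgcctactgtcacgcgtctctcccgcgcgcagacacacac

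The downstream start of Postn and the Tnc start shown both hold TATATAA, with its first base at -28 in Postn and at -29 in Tnc relative to the annotated start. Of 32851 mouse promoter windows of the same length, 11.3% hold TATANAA anywhere and 1.48% hold it on the gene's strand between -40 and -15. In the windows of these genes that position was filled in 2 of 9, both printed above. Tnn, which also fell, holds no TATANAA match; its window has an ATTGG at -59 and a GGAATG at -160. CCAAT occurs in 37.4% of all windows and in 4 of the 9, GGGCGG in 35.7% and in 4 of the 9, and GGAATG in 14.7% and in 1 of the 9. The 4 windows with GGGCGG are those of Tgfbi, Thbs3 and Tnc, and the 2 overlapping Tnc windows hold the same match. No window of the 9 held TGANTCA, against 7.81% of all windows, or a CArG box, against 1.63%. These matches describe the letters only and do not show that a factor binds.

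CpG content also differed between the windows. The observed over expected CpG ratio was 0.24 at the downstream and 0.36 at the upstream start of Postn, 0.48 at Tnn and 0.23 at Thbs2, and its median over all windows was 0.384. It was 0.73 at Tgfbi and also 0.73 at the Tnc start printed above, and it was lowest at Sparc, with 0.17. Of the genes that fell by 2-fold or more, Postn lay below that median at both starts and Tnn above it; Thbs2, which rose, lay below it.

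**Figure D1:**
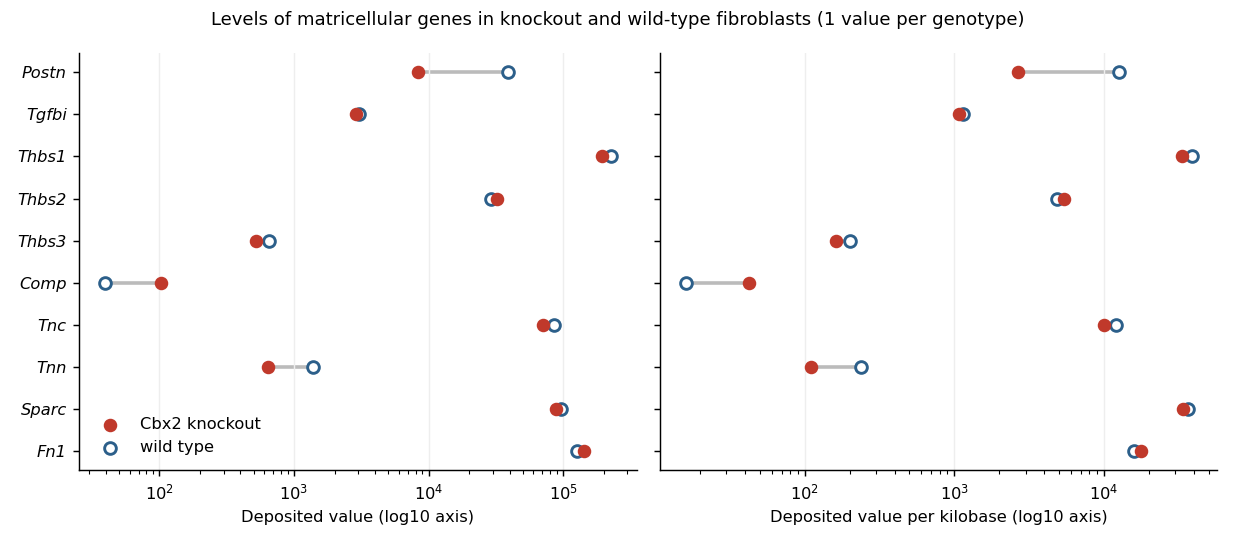
Deposited values (left) and values per kilobase of transcript (right) of the 10 genes on log10 axes, with filled points for knockout, open points for wild type and a bar between them; each genotype has 1 value. Postn, Comp and Tnn show wide gaps between genotypes, and the points of the other genes lie close together.

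Several of these transcripts were among the most abundant of the culture. Together the 10 genes made up 2.87% of the summed signal in knockout and 3.14% in wild type. By deposited value, 5 of them stood among the 100 highest genes in knockout and 6 in wild type; Postn made the difference. By value per kilobase, 3 of the 10 stood among the 100 highest in knockout (Sparc, Thbs1 and Fn1) and 5 in wild type, where Postn and Tnc joined them. Thbs1 was the second highest gene of the table in both genotypes, with 1.03% of the knockout and 1.17% of the wild-type sum.

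Compared per kilobase of transcript, the scale on which levels of different genes can be set side by side, the order in knockout was Sparc (33508), Thbs1 (33301), Fn1 (17756), Tnc (9951), Thbs2 (5409), Postn (2659), Tgfbi (1070), Thbs3 (163), Tnn (110.4) and Comp (42.3). In wild type the level per kilobase was 38827 for Thbs1, 36258 for Sparc, 15754 for Fn1, 12517 for Postn, 12124 for Tnc, 4876 for Thbs2, 1145 for Tgfbi, 238 for Tnn, 202 for Thbs3 and 16.0 for Comp. Postn stood above Tnc and Thbs2 in wild type and below both in knockout. With 1 value per genotype, the order of close neighbours such as Sparc and Thbs1, or Postn and Tnc in wild type, is not established.

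Of the 10 genes, that of periostin had the largest fold change. Postn (gene 50706, chr3:54359267-54391041) had a value of 8337 in knockout and 39240 in wild type, so knockout cells held 21.2% of the wild-type signal. Its log2 fold change was -2.23 in the authors' deposited table, where its adjusted p is listed as 0, as are the p-values of 2 genes in all. A p of 0 gives no standard error; in the 200 genes nearest in level the standard error implied by the deposited p had a median of 0.038 on the log2 scale. Among the 638 genes with a mean value of at least 5000, Postn had the lowest log2 fold change. It stood at rank 35 by value in wild type and at rank 323 in knockout.

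Tgfbi, the closest relative of Postn in the group, did not follow it. Tgfbi (gene 21810, chr13:56609586-56639359) had a value of 2865 in knockout and 3066 in wild type. The log2 fold change of Tgfbi was -0.098, with an implied standard error of 0.057 and a DESeq2 adjusted p of 0.479 per the authors' deposited table. The interval implied by that error at 95% runs from -0.21 to 0.014, far from the value of Postn. Of the summed per-kilobase signal of fasciclin-domain genes (Postn, Tgfbi, Stab1 and Stab2), Postn held 71.3% in knockout and 91.6% in wild type, and Tgfbi 28.7% in knockout and 8.38% in wild type.

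The thrombospondins moved in different directions. Thbs1 (gene 21825, chr2:118111876-118127133), a trimeric inhibitor of blood vessel growth, had a value of 195246 in knockout and 227642 in wild type. It fell, with a log2 fold change of -0.22, an implied standard error of 0.067 and a DESeq2 adjusted p of 0.0152 per the authors' deposited table. Thbs2 (gene 21826, chr17:14665500-14694262), the other trimeric form, had 32033 in knockout and 28878 in wild type. It rose by a log2 fold change of 0.15, with an implied standard error of 0.036 and a DESeq2 adjusted p of 9.72e-04 per the authors' deposited table. The implied 95% intervals of the 2 genes, from -0.35 to -0.091 for Thbs1 and from 0.078 to 0.22 for Thbs2, lie on opposite sides of 0. Both changes were small, to 85.8% of the wild-type value for Thbs1 and to 110.9% for Thbs2.

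Among the pentameric thrombospondins only Comp passed the threshold. Thbs3 (gene 21827, chr3:89215180-89226841) had a value of 523 in knockout and 647 in wild type, a log2 fold change of -0.31 with an implied standard error of 0.11 and a DESeq2 adjusted p of 0.0721 per the authors' deposited table; adjusted only over genes at or above the median mean value, that p was 0.0478. Thbs4, the remaining pentameric gene and not one of the 10, had 1694 in knockout and 1687 in wild type (log2 fold change 0.0063 in the authors' deposited table, DESeq2 adjusted p 0.997). Of the per-kilobase signal of all 5 thrombospondin genes, Thbs1 held 84.4% in knockout and 87.4% in wild type, and Thbs2 13.7% in knockout and 11.0% in wild type.

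Comp, cartilage oligomeric matrix protein, is best known from cartilage and tendon. Comp (gene 12845, chr8:70373548-70382066) was the lowest of the 10 and rose, with a value of 103 in knockout and 39.2 in wild type. Its log2 fold change was 1.40 in the authors' deposited table, with an implied standard error of 0.31 and a DESeq2 adjusted p of 1.60e-04. Because its level is low, the whole reads of each library could be recovered from the deposited values, with exactly 1 matching set. Around this level 72% of shifted values also matched, so that set shows the reads only if the true set always matches. The recovered reads were 125 and 94 in the knockout libraries and 36 and 35 in the wild-type libraries, so the genotypes did not overlap. The same held for 54.9% of 468 genes of like level with recovered reads (mean value 50 to 75), and in 36.3% both knockout libraries were the higher ones. Divided by the size factors these became 121 and 91.2 in knockout and 35.7 and 37.4 in wild type. The ratio of their means was 2.90, a log2 ratio of 1.54, somewhat above the deposited fold change, which is shrunken in low genes.

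**Figure D2:**
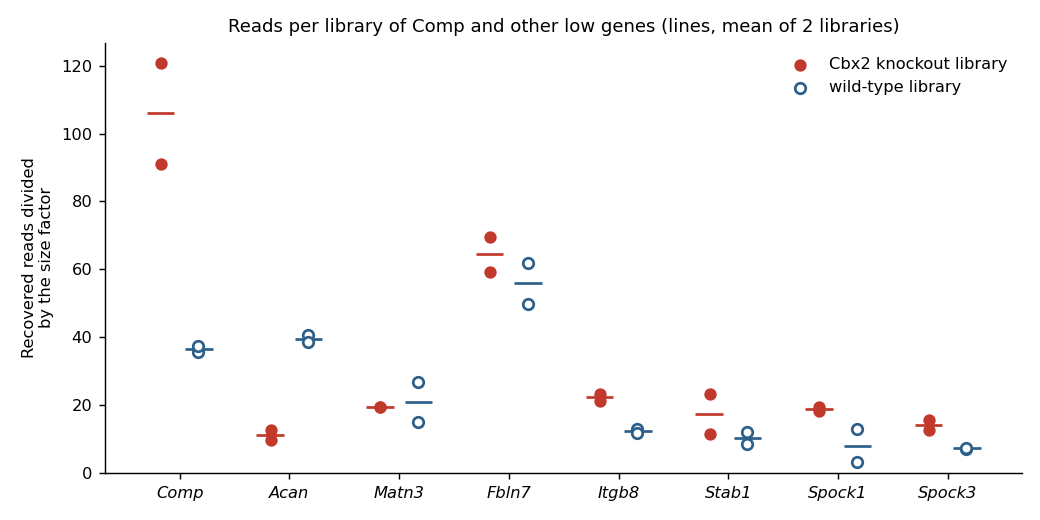
Reads per library divided by the size factor for Comp, for the cartilage genes Acan and Matn3, and for low genes of the related lists; filled points are knockout libraries, open points wild-type libraries and lines the mean of 2 libraries. The knockout libraries of Comp, at 121 and 91.2, lie above the wild-type libraries at 35.7 and 37.4, while those of Acan lie below.

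Other genes of cartilage and of tendon are given beside Comp. Acan, the large cartilage proteoglycan aggrecan, had 13 and 10 recovered reads in knockout and 41 and 36 in wild type, so it went the other way. Of 6 chondrocyte markers measured none rose and 2 fell, Acan and the transcription factor gene Sox9 (302.8 in knockout and 526.7 in wild type), and the list summed to 1412 in knockout and 1627 in wild type. All 4 tendon markers had a log2 fold change above 0. Of these 1 rose, Tnmd, encoding tenomodulin, with 1355 in knockout and 675 in wild type. Scx, encoding the tendon transcription factor scleraxis, had 140.5 in knockout and 125.6 in wild type (DESeq2 adjusted p 0.931). Mkx had 95.7 in knockout and 89.7 in wild type. The tendon list summed to 7030 in knockout and 6071 in wild type, mostly from Fmod (5440 in knockout and 5181 in wild type). Its part in the rise of Comp was not tested. Beside these counts, 7.78% of all genes passed.

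Both tenascins of the group fell, Tnn more than Tnc. Tnn, which encodes tenascin W (gene 329278, chr1:160085029-160153692), a protein of developing bone and of tumour stroma, had a value of 643 in knockout and 1388 in wild type. The log2 fold change of Tnn was -1.11 in the authors' deposited table, with an implied standard error of 0.090 and a DESeq2 adjusted p of 1.12e-32. Tnc, which encodes tenascin C (gene 21923, chr4:63959785-64047015), had 70649 in knockout and 86084 in wild type. Its log2 fold change was -0.29, with an implied standard error of 0.037 and a DESeq2 adjusted p of 7.57e-13 per the authors' deposited table. The implied 95% intervals, from -1.29 to -0.93 for Tnn and from -0.36 to -0.21 for Tnc, do not overlap. Tnc held 98.7% of the per-kilobase tenascin signal in knockout and 98.0% in wild type, and Tnn 1.10% in knockout and 1.93% in wild type.

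The other tenascin genes did not fall. Tnxb, encoding tenascin X, rose to 189 in knockout, against 104 in wild type (log2 fold change 0.87, DESeq2 adjusted p 0.00395 in the authors' deposited table). Tnr, a tenascin of the nervous system, had 2 and 3 recovered reads in knockout and 0 and 0 in wild type, too few for a comparison. Tnn is known from bone. Of 7 osteoblast markers none rose or fell by the authors' DESeq2 test, with 0 also at an unadjusted p under 0.05. Their values summed to 1602 in knockout and 1595 in wild type, mostly from Runx2 (1107 in knockout and 1086 in wild type). Bglap, Bglap2, Ibsp and Dmp1 had at most 21 recovered reads in a library, so a change in them could be missed. The part of bone cells in the fall of Tnn was not tested.

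Sparc and fibronectin stayed close to their wild-type levels. Sparc (gene 20692, chr11:55394159-55420080) had a value of 88462 in knockout and 95720 in wild type. It fell by a log2 fold change of -0.11, to 92.4% of wild type, with an implied standard error of 0.030 and a DESeq2 adjusted p of 0.00358 per the authors' deposited table. Fn1 (gene 14268, chr1:71585473-71653280) had 143893 in knockout and 127667 in wild type. Its log2 fold change of 0.17, with an implied standard error of 0.078 and a DESeq2 adjusted p of 0.226 per the authors' deposited table, did not pass, although the unadjusted interval from 0.019 to 0.33 lies above 0. Fn1 and Tnc are spliced into several forms, which a value per gene does not separate.

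Altogether 5 of the 10 genes fell (Postn, Tnn, Tnc, Thbs1 and Sparc), 2 rose (Comp and Thbs2) and 3 did not pass (Tgfbi, Thbs3 and Fn1). Over all genes tested the share that passed was 7.78%, with 3.48% higher and 4.3% lower in knockout. The share depends on level, being 32.9% among the 255 genes with a mean value of at least 10000, where 6 of the 10 lie, 15.1% between 1000 and 10000, 8.32% between 100 and 1000, and 2.48% below 100. With a 2-fold change required as well, as in the authors' own calls, 1.69% of all genes passed (1% higher and 0.682% lower) and 3 of the 10 did, Postn and Tnn lower and Comp higher. The median log2 fold change of the 10 was -0.17, beside 0.0036 over all genes. Of the summed differences in deposited value of the 7 genes with a log2 fold change below 0, Thbs1 gave 37.2% and Postn 35.5%. In such a sum longer transcripts weigh more, and per kilobase Postn differed more than Thbs1. Postn had 2659 per kilobase in knockout and 12517 in wild type, and Thbs1 33301 in knockout and 38827 in wild type.

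**Figure D3:**
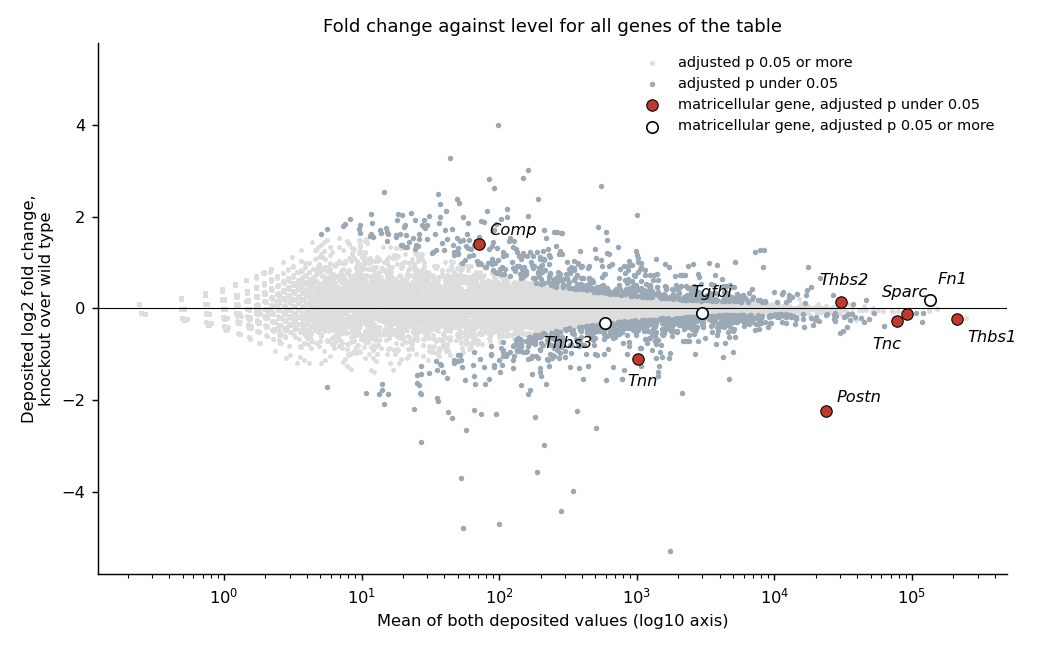
Deposited log2 fold change, knockout over wild type, against the mean of both deposited values on a log10 axis for all 17441 genes, with the 10 genes labelled (filled where the adjusted p is under 0.05). Postn lies far below the other genes of its level, and Tnn also lies well below 0, at -1.11. Comp lies among low genes that rose, and the remaining abundant genes sit near 0.

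Macrophage markers, most of which were higher in knockout, are given because macrophages also express Fn1 and Tgfbi. Of 11 such markers 8 rose and none fell, their values summing to 1854 in knockout and 645 in wild type. Lyz2 held much of the knockout sum, with 947 in knockout and 148 in wild type. Csf1r, the highest of the list in wild type, had 257 in knockout and 245 in wild type. It did not pass, nor did Ptprc and Aif1, and Aif1 was the lower in knockout. Recovered whole reads, available for 7 of the 11, were above 0 in at least 1 library of each genotype for all 7. Ptprc, the pan-leukocyte gene, had 21 and 16 recovered reads in knockout and 3 and 3 in wild type. Endothelial markers summed to 685 in knockout and 179 in wild type (2 of 9 rose, Esam and Cdh5), epithelial markers to 93.1 in knockout and 368 in wild type (2 of 7 fell, Krt8 and Krt18), and smooth muscle markers to 217561 in knockout and 222006 in wild type (1 of 7 rose and 3 fell). Among the 7 endothelial markers with recovered reads, Emcn had none in either knockout library and Vwf none in either wild-type library. Of the fibroblast markers 8 of 11 fell and 1 rose, Thy1, with 11919 in knockout and 4928 in wild type. Col1a1, Col1a2, Col3a1, Dcn and Lum of this list are counted again among the matrix partners below. Beside these counts, 7.78% of all genes passed, and 32.9% of those with a mean value of at least 10000. Many of the fibroblast and smooth muscle markers are abundant, and the counts were not compared with genes of like level. The part of any of these lists in the values of the 10 genes was not tested.

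Related genes were counted in lists by family and role. Over all genes 7.78% passed, but 32.9% did at a mean value of at least 10000 and 15.1% between 1000 and 10000. Many genes of these lists are that abundant, and the counts were not compared with genes of like level. Of 11 further genes from the same families 3 rose and none fell, with a median log2 fold change of 0.52. Besides Tnxb these were the SPARC relatives Smoc1, with 3403 in knockout and 1745 in wild type, and Smoc2, with 3780 in knockout and 3010 in wild type. Fstl1, an abundant SPARC relative, had 30658 in knockout and 31144 in wild type and did not pass. Of the low genes, Spock1 had 19 and 20 recovered reads in knockout and 13 and 3 in wild type, and Spock3 had 16 and 13 in knockout and 7 and 7 in wild type. The median of this list rests in part on such genes with few reads.

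Among 14 CCN and other matricellular genes 5 fell and 1 rose, with a median log2 fold change of -0.060. Wisp1 and Wisp2, growth-regulating CCN proteins, fell to 3216 and 1100 in knockout, against 4534 and 1552 in wild type. Fbln2, an elastic fibre and basement membrane protein, fell to 44740 in knockout, against 52168 in wild type, and Mfap5, of the microfibrils, to 2623 in knockout, against 3317 in wild type. Ctgf, a YAP and TGF-beta target, rose slightly, with 38599 in knockout and 35936 in wild type. Spp1, the gene of osteopontin, had 42700 in knockout and 44065 in wild type and did not pass (DESeq2 adjusted p 0.659).

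Of 20 receptor genes 6 fell and 2 rose, with a median log2 fold change of -0.10. The 2 that rose were Sdc4, with 3844 in knockout and 3400 in wild type, and Itga3, with 465 in knockout and 349 in wild type. Itgb3 and Itgb5, integrin chains that pair with Itgav to bind periostin, fell to 1726 and 4518 in knockout, against 2816 and 5345 in wild type. Itgav itself had 6098 in knockout and 5460 in wild type (DESeq2 adjusted p 0.0502). Itga8, whose integrin binds fibronectin and tenascins, had 208 in knockout and 397 in wild type, and Itga5, of the main fibronectin receptor, 31265 in knockout and 35260 in wild type; both fell. Itgb1, the most abundant receptor gene of the list by value, had 45834 in knockout and 46091 in wild type and did not pass.

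**Figure D4:**
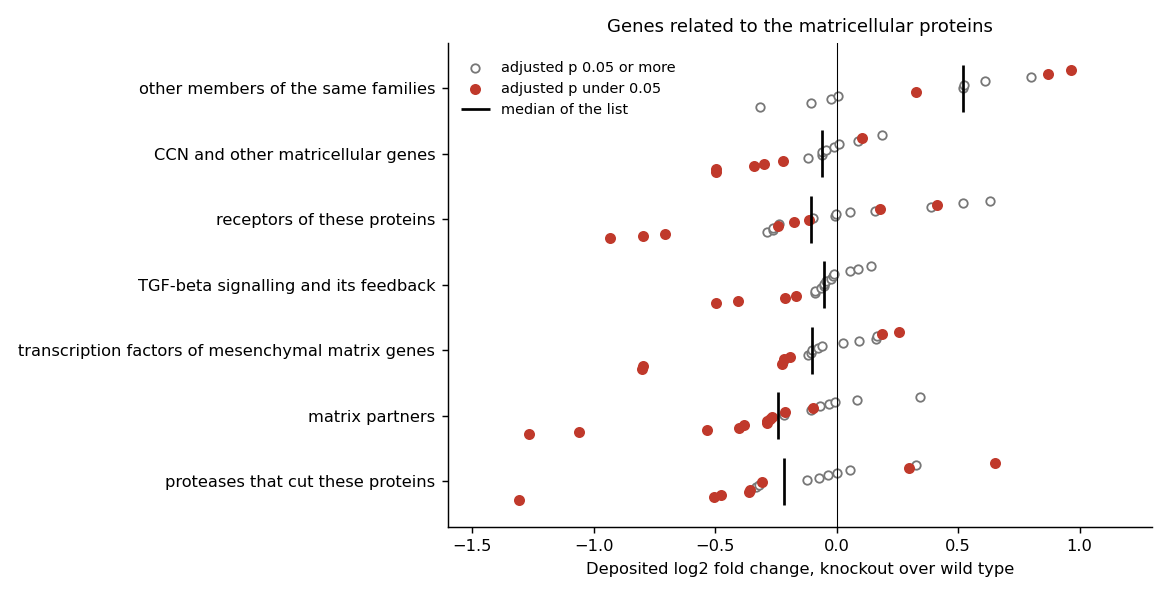
Deposited log2 fold change, knockout over wild type, of each measured gene of 7 related lists, filled where the adjusted p is under 0.05, with a bar at the median of the list. Matrix partners lie mostly below 0 (11 of 18 fell), and genes from the same families lie mostly above it (3 of 11 rose).

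Matrix partners of these proteins had the most falls among the 7 lists, with 11 of 18 falling, none rising (1 at an unadjusted DESeq2 p under 0.05) and a median log2 fold change of -0.24. Dcn, the collagen-binding proteoglycan decorin, had 2767 in knockout and 5774 in wild type, and Lum, lumican, 258 in knockout and 620.4 in wild type. Col6a3, a chain of collagen VI, had 24725 in knockout and 35780 in wild type, Col12a1 29205 in knockout and 38552 in wild type, and Col3a1 54815 in knockout and 71346 in wild type. Bmp1, a protease that periostin is known to bind and that trims procollagens, fell to 5841 in knockout, against 6765 in wild type, and Lox, the crosslinking enzyme, had 71453 in knockout and 74928 in wild type and did not pass. Col1a1, the highest value of the table in wild type, had 227630 in knockout and 264489 in wild type (DESeq2 adjusted p 0.0653).

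Genes of TGF-beta signalling, which is known to induce Postn, Tnc and Fn1, had 4 falls and no rise among 16 by DESeq2 (no rise also at an unadjusted p under 0.05), with a median log2 fold change of -0.053. The receptor genes Tgfbr1 and Tgfbr3 had 909 and 999 in knockout, against 1205 and 1408 in wild type. Ltbp2, of the latent TGF-beta binding protein family, had 16979 in knockout and 19664 in wild type. The ligand genes Tgfb1, Tgfb2 and Tgfb3 and the signal carriers Smad2, Smad3 and Smad4 did not pass.

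Transcription factors of mesenchymal matrix genes had 5 falls and 2 rises among 17, with a median log2 fold change of -0.099. Twist2 had 1103 in knockout and 1921 in wild type, whereas its relative Twist1, known as an activator of Postn, had 1772 in knockout and 1579 in wild type and did not pass (DESeq2 adjusted p 0.170). Prrx1, known to act on Tnc, had 9754 in knockout and 11138 in wild type and fell, and its relative Prrx2 rose, with 2602 in knockout and 2180 in wild type. Snai1 had 4109 in knockout and 4779 in wild type.

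Among 16 proteases and their inhibitors 6 fell and 2 rose, with a median log2 fold change of -0.21. The members that rose were the protease inhibitors Timp3 (26344 in knockout and 16745 in wild type) and Timp2 (29485 in knockout and 23973 in wild type). Those that fell were proteases, including the membrane-bound Mmp14 (16667 in knockout and 21389 in wild type), Mmp2 (6187 in knockout and 7654 in wild type), Htra1 (976 in knockout and 1355 in wild type) and Adamts12, which can cut Comp (938 in knockout and 1329 in wild type).

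The nearest genes in the table along the chromosome, 2 on each side of each of the 10, gave 40 neighbours, of which 2 rose and 2 fell (10.0%, beside 7.78% of all genes). For Postn the nearest were Trpc4 at 40.8 kb (4.74 in knockout and 6.39 in wild type) and Supt20 at 302 kb (625 in knockout and 701 in wild type), and none of its 4 neighbours passed. Beside Tnn the long non-coding gene 4930523C07Rik, at 6.44 kb, fell with it, with 169 in knockout and 282 in wild type (log2 fold change -0.74, DESeq2 adjusted p 6.37e-04 in the authors' deposited table). On its other side Mrps14 and Cacybp did not pass. Around Tnc the cytokine gene Tnfsf15, at 215 kb, rose to 317 in knockout, against 142 in wild type, and Pappa, at 1077 kb, fell to 2526 in knockout, against 2974 in wild type. The rise of Thbs2 stood beside that of Smoc2 at 261 kb. Thbs1, Thbs3, Comp, Sparc, Fn1 and Tgfbi had no neighbour past the threshold. RefSeq places a long non-coding gene over Postn, Thbs3, Comp and Tnc each; none of these 4 is in the table, and since the strand setting of the counting is not given, reads from them could not be separated.

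**Figure D5:**
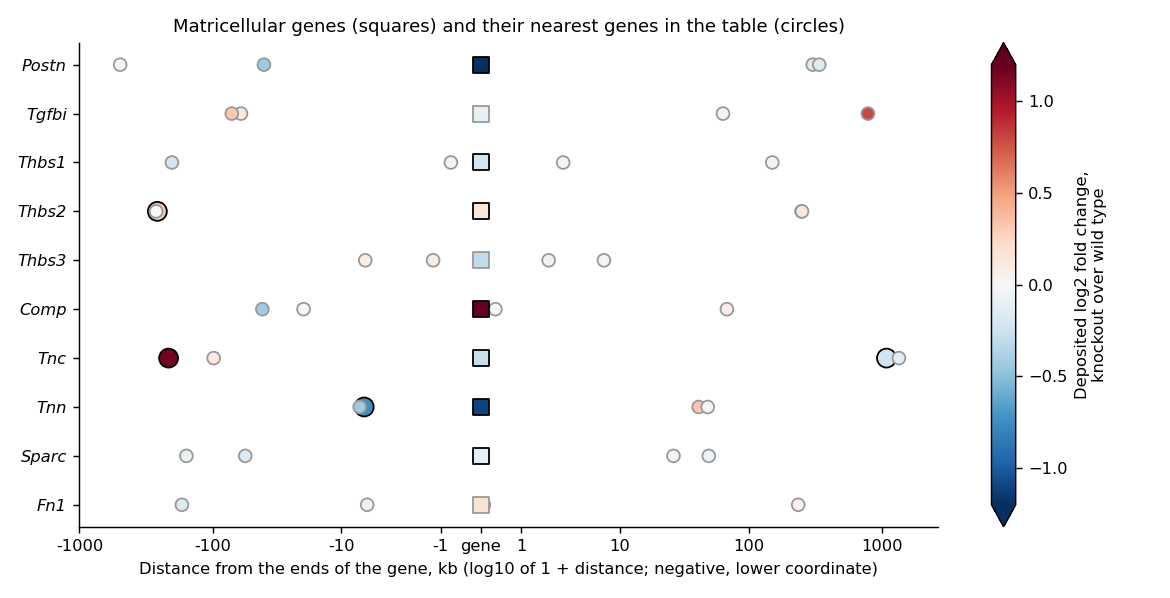
The 10 genes (squares) and the 2 nearest genes of the table on each side (circles) by distance in kb from the ends of the gene on a log10 scale of 1 plus the distance, coloured by deposited log2 fold change, knockout over wild type; dark outlines mark an adjusted p under 0.05, large circles likewise. Apart from 1 circle each beside Thbs2 and Tnn and 2 beside Tnc, the neighbours are pale or have grey outlines, and the 1 nearest to Fn1 is hidden by its square.

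The gene annotation deposited with the table was not itself used to choose the 10 genes. They were chosen as genes of matrix proteins, however, so shared matrix terms follow from that choice and are a description only. The term proteinaceous extracellular matrix is held by 7 of the 10 genes and by 201 genes of the table, of which 17 rose and 42 fell. Heparin binding is held by 5 (Comp, Fn1, Postn, Thbs1 and Thbs3) and by 114 genes of the table, of which 12 rose and 22 fell. Calcium ion binding is held by 4 (Comp, Sparc, Thbs1 and Thbs3) and by 520 of the table, of which 25 rose and 43 fell. The shares that passed were 29.4%, 29.8% and 13.1% in the order given, beside 7.78% of all genes, without regard to level. Median log2 fold changes over these terms were -0.032, -0.0066 and -0.019.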

How the data were processed

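RNA libraries, 2 per genotype, were grouped by the genotype in their labels; 4 ATAC-seq libraries are not analysed here. A single table was used. Each expression column, as deposited, is a read signal that the authors normalised, with 1 value for each genotype; the mean of both equals the mean of size-factor-scaled reads over the 4 libraries, while their ratio equals the deposited, shrunken fold change, so the columns are not genotype means of scaled reads. The log2 fold changes, deposited by the authors, are shrunken in low genes. The p-value columns were deposited by the authors, and the adjusted p-values equal a Benjamini-Hochberg adjustment over all 17441 genes. The length column, a property of the gene other than its expression, was deposited by the authors and is read as bases per transcript. The submitters' processing notes name mm10, HISAT2, RSEM, Bowtie2 and DESeq2, with neither versions nor roles.

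The genes and lists were chosen with earlier results of these data known. Tests are the authors' own, since the table holds values per genotype and not the counts per library that the design had allowed for. Standard errors were implied from fold change and p. In each list up to 4 genes past the threshold and the 2 highest were candidates for naming; others named were chosen after their values were seen. Values per kilobase divide by the deposited length. Whole reads per library were recovered from the mean of both columns (size factors 1.03 and 1.03 in knockout, 1.01 and 0.935 in wild type). Each of 6126 genes with a mean under 50 had exactly 1 matching set, as had 468 of 513 between 50 and 75, and none had no match; around the level of Comp 72% of shifted values also matched, so a single set shows the reads only if the true set always matches. Library order within a genotype is not known. The recovery step was tested on simulated data. Both libraries of each genotype were counted, as their reads differed by more than sampling noise (chi-square per gene 1.28 on average in knockout and 1.25 in wild type). Gene positions and promoters are RefSeq's for GRCm38.p6, matched by gene identifier. Python 3.11.15, numpy 2.4.6, pandas 2.3.3, scipy 1.17.1 and matplotlib 3.10.9 were used.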

Additional observations from a re-analysis of the deposited data

How the results depend on the processing

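No paired analysis was possible because the table holds 1 value per genotype; for the same reason no library was left out. With a 2-fold change required beside an adjusted p of 0.05, 3 of the 10 genes were called in place of 7. The lists of related genes then had 0 calls (same families, CCN, receptors, TGF-beta and transcription factors), 2 (matrix partners) and 1 (proteases), by construction. With genes below the median mean value left out, and Comp with them, 7 of the remaining 9 were called, Thbs3 among them (Benjamini-Hochberg adjusted DESeq2 p 0.0478). Ranking knockout levels per kilobase changed the place of 5 genes. Of 41 alternative fold changes of the 10 genes 4, all from scaling the columns to the same sum (a shift of 0.039), moved by more than the implied standard error. None changed sign, but the shifts and pseudocounts could not have reversed one. The smallest absolute log2 fold change was 0.098, and a pseudocount only draws a fold change towards 0. Reads per library were recovered for Comp alone, and shrinkage was not measured in the other 9. Accessibility was not analysed here.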
